A study of Mus musculus with 8 samples.

Results

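The genes described here encode the protein components of the cytosolic ribosome, together with the few close copies (paralogues) of them that the mouse genome carries. They were taken by symbol: every gene whose only annotated symbol on a probe set was Rpl or Rps with a number and an optional suffix, leaving out the S6 kinases. This gave 68 of the 17097 genes with 1 symbol on the array. Of these, 61 were core ribosomal protein genes (23 of the small and 38 of the large subunit) and 6 were paralogues (Rpl3l, Rpl7l1, Rpl22l1, Rpl36al, Rpl39l and Rps27l). The remaining gene, Rps19bp1, encodes a protein that binds Rps19 and is no part of the ribosome; it met the symbol rule and is given on its own. Where a gene had several probe sets, the brightest by mean over the 8 arrays stands for it. A filter on low values kept 67 of the 68, all but Rpl3l. The rule used symbols and probe set means over all arrays and no difference between groups.

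The study, by its title, concerns how heart lineages become restricted early in development. Cells came from gastrulating mouse embryos, all of which carried a Mesp1-rtTA transgene, in which Mesp1 sequences drive a tetracycline-controlled activator, and a Teto-H2B-GFP transgene, which turns that activity into a nuclear green signal. Living cells were sorted as GFP+ or GFP- at embryonic day (E) 6.5 or 7.5, which gives 4 groups of 2 arrays, numbered replicate 1 and 2, each from 50 cells. The GFP reports the Mesp1-driven transgene, and since histone-bound GFP is a stable protein it can outlast Mesp1 itself; the labels do not say how many embryos a sort pooled, and no agent or dose for inducing the transgene is named. The p-values below measure the spread between these arrays.

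Ribosomal proteins are made in near-equal numbers and assembled onto ribosomal RNA in the nucleolus, and their messenger RNAs are among the most abundant of any dividing cell. Cells of the early embryo divide fast and need a high rate of ribosome production. A few core genes have paralogues with a narrower range of tissues: Rpl39l, for instance, is known for its expression in testis and in pluripotent cells, and Rpl3l for heart and skeletal muscle. Rpl39 and its copy line the tunnel through which the new peptide leaves the large subunit.

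The promoters of 4 genes are shown for the place of these genes in the results. Rpl39l was the only member called in any of the 7 comparisons, Rpl39 is the X-linked gene it resembles, Rpl22l1 had the highest stage difference over both fractions of the members tested, and Rpl27 had the smallest range of the core genes over the 8 arrays. Each sequence is the 250 bases before the annotated start, from RefSeq (GRCm38.p6). Capitals mark matches, on either strand, to 4 short motifs: a TATA box, a GC box, an ETS site and a YY1 site, whose letters follow below the sequences. The Rpl39l promoter lies at chr16:10169978-10170227 (plus strand), Rpl39 at chrX:37085223-37085472 (minus strand), Rpl22l1 at chr3:28805258-28805507 (plus strand) and Rpl27 at chr11:101441995-101442244 (plus strand).
Rpl39l: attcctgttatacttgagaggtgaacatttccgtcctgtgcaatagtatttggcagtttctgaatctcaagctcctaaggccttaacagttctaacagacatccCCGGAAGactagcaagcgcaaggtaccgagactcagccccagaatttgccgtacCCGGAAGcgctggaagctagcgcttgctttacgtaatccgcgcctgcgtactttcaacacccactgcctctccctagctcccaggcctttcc
Rpl39: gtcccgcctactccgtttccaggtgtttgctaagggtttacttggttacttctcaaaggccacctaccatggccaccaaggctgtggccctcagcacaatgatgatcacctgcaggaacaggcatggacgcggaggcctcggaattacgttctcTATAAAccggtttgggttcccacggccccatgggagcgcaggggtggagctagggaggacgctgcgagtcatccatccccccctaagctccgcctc
Rpl22l1: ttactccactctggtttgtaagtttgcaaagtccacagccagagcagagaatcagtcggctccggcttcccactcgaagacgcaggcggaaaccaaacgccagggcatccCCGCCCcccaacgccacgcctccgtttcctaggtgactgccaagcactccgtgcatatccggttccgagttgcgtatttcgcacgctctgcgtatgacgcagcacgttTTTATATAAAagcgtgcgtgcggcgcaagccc
Rpl27: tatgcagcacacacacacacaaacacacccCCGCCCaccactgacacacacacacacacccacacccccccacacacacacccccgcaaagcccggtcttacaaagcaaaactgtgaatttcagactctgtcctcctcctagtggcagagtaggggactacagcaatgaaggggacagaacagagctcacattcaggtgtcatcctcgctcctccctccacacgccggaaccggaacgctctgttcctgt

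The TATA box was searched as TATAAA. The GC box was searched as GGGCGG. The ETS site, bound by factors of the ETS family, was CCGGAAG. The YY1 site was ATGGCGG. No motif can hold another whole, but matches may overlap at their ends. The Rpl39l promoter held 2 ETS matches, which began 146 and 92 bases before the start, and none of the other 3 motifs. The Rpl39 promoter held none of these ETS matches and 1 kind of motif, a TATA match. Both had 12 CpG dinucleotides, against a median of 18 over the 57 windows of core genes and of 6 over all 32851 promoter windows of the table. An ETS match lay in 16 of the 57 core windows (28.1%) and in 6.91% of all windows, and a GC box in 49.1% and 32.7%. In all, 55 of the 68 members had 1 or more windows in the table (66 windows). A TATA match was in 5.26% of core windows and 12.4% of all windows, and a YY1 match in 8.77% and 2.21%. These are matches of letters in a fixed window and describe no binding.

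Levels are deposited log2 values after RMA, the authors' background correction, normalization and summary of probes. Medians over all probe sets were 4.20 to 4.23 on the replicate 1 arrays and 4.54 to 4.59 on the replicate 2 arrays, and sorted values differed by at most 0.0399 on average between arrays of 1 replicate number but by at least 0.196 between numbers. Differences within each number are therefore given beside the main results. Of the marker lists, that of nascent mesoderm (5 of 6 on the array) had a summed level (log2 of the sum of its genes' unlogged values) of 12.8 to 12.9 in GFP+ and 8.93 to 10.2 in GFP- cells at E6.5, and of 12.2 to 12.5 and 11.5 to 11.7 at E7.5. The erythroid sum was 5.51 to 5.93 outside GFP- cells of E7.5 and 6.84 to 7.71 in them, and the endothelial sum 5.93 to 9.33. The erythroid genes Hba-x and Hbb-y and the endothelial gene Cdh5 lay below 4.38, the median of all deposited values that the filter used, on all 8 arrays. Changes below are differences of log2 values, with the standard error (SE) of a limma fit over all 8 arrays, and a gene is called when its Benjamini-Hochberg adjusted p over 11706 genes is under 0.05.

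Rpl39l fell between E6.5 and E7.5. Its values were 6.88 and 6.99 in GFP- cells at E6.5 (replicates 1 and 2), 4.96 and 5.41 in GFP+ cells at E6.5, 4.07 and 4.07 in GFP- cells at E7.5, and 4.32 and 3.96 in GFP+ cells at E7.5. The 4 groups thus formed 3 levels without overlap: the GFP- cells of E6.5 highest, the GFP+ cells of E6.5 between, and both fractions of E7.5 lowest and overlapping each other. How many of all genes separate in this way, with 2 arrays a group, was not counted. Every E7.5 value lay under 4.38, so the gene passed the filter through its E6.5 arrays alone, and the size of the differences between stages is uncertain. In GFP- cells the measured change from E6.5 to E7.5 was -2.87 (SE 0.30, adjusted p = 0.0331 by limma); replicate 1 alone gave -2.81 and replicate 2 gave -2.92. Over both fractions it was -1.96 (SE 0.21, adjusted p = 0.0227 by limma); the replicates gave -1.73 and -2.19. With each E7.5 array counted at 4.38, the group means were 5.86-fold lower at E7.5 in GFP- cells and 3.20-fold lower over both fractions. These 2 values leave out the spread between arrays, and 4.38 is a median of values and no detection limit, so they are no lower bounds.

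Of the 67 members tested, Rpl39l was the only one called in either comparison (1.49%), where 0.094% of all genes were called between stages in GFP- cells and 0.256% over both fractions. Calls in the downward direction made up 0.0171% and 0.0342% of all genes. A count of 1 rests on this gene alone. By size, 5 genes had a lower change than Rpl39l in GFP- cells and 8 over both fractions. Among all probe sets of an array, Rpl39l stood at the 81.6th and 80.8th percentile in GFP- cells at E6.5 and between the 38.7th and 51.8th at E7.5. The calls ended when any 1 of the 8 arrays was left out (limma adjusted p = 0.0701 to 0.252 in GFP- cells and 0.0684 to 0.132 over both fractions, with changes of -2.81 to -2.92 and -1.84 to -2.07), and in GFP- cells also when only the 4 arrays of that comparison were fitted (limma adjusted p = 0.155).

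Between fractions at E6.5, Rpl39l was at -1.75 in GFP+ relative to GFP- cells (SE 0.30, 95% interval -2.46 to -1.04, -1.92 and -1.58 within the replicates), which was not called (limma adjusted p = 0.152). Of all genes, 0.0769% were called in this comparison. At E7.5 the difference was 0.07 (SE 0.30, 95% interval -0.64 to 0.78), with 0.25 and -0.11 within the replicates. All 4 values behind it lay under 4.38, where a difference between the fractions could not be measured. The difference between these 2 differences was 1.82 (SE 0.43, limma adjusted p = 1.00, unadjusted p = 0.00354 by limma). Its E7.5 part is that difference between values under 4.38, so this contrast does not show whether the fraction effect differed between the stages. In GFP+ cells the stage difference was -1.05 (SE 0.30, -0.64 and -1.45 within the replicates, limma adjusted p = 0.806). Over both stages the fraction difference was -0.84 (SE 0.21, limma adjusted p = 0.359). It was the only member at an unadjusted p under 0.05 by limma in any comparison. Of all 11706 genes, 282 to 843 were, depending on the comparison.

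**Figure D1:**
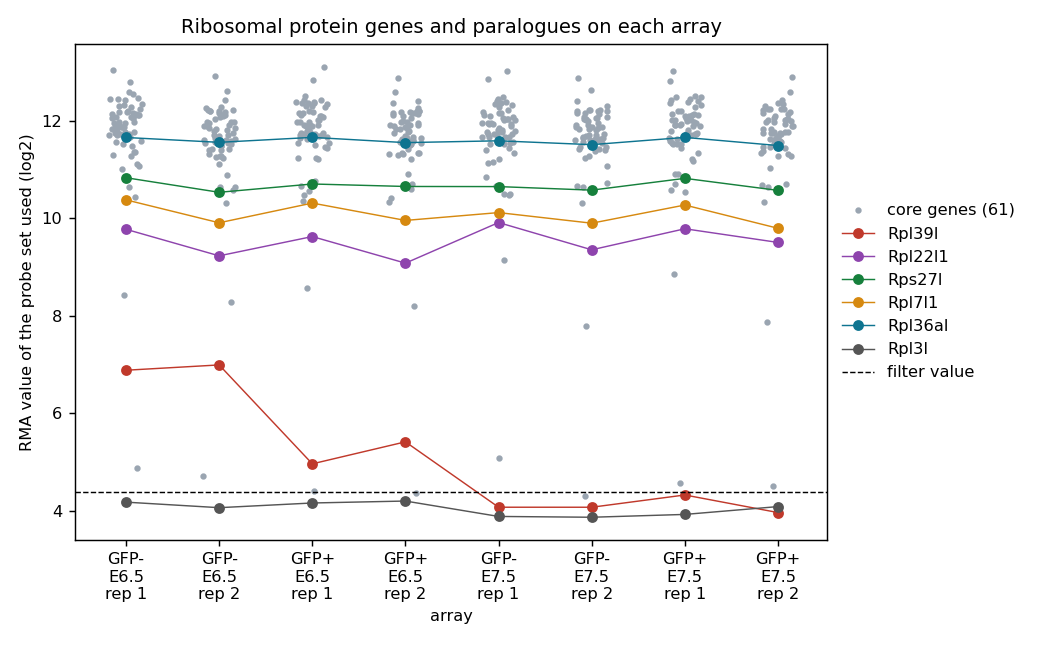
Log2 RMA value (vertical axis) of the 61 core ribosomal protein genes (grey points) and the 6 paralogues (coloured points, joined only to guide the eye) on each of the 8 arrays (horizontal axis), with the filter value of 4.38 dashed. Rpl39l stands at 6.88 and 6.99 in GFP- cells at E6.5 and at or below 4.32 on all E7.5 arrays, while 54 of the core genes have a mean above 11.

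Markers of other cells differed in level between the same groups, but none of the 3 lists that follow held a gene called by limma in any comparison. With the replicate number as a block, 1 visceral endoderm marker was called between fractions at E6.5, where 0.256% of all genes were. The list for epithelial epiblast (5 of 5 on the array) had a summed level of 12.8 to 12.9 in GFP- cells at E6.5, 11.6 to 11.9 in GFP+ cells at E6.5, 11.85 to 12.01 in GFP- cells at E7.5 and 10.8 to 11.3 in GFP+ cells at E7.5. That of visceral endoderm (7 of 7) was at 9.42 to 11.4, 7.40 to 7.94, 8.44 to 9.21 and 8.26 to 8.46 in the same order. Extraembryonic ectoderm (4 of 4) was at 8.78 to 10.3, 6.32 to 6.56, 9.17 to 10.3 and 8.07 to 8.72. No marker of these 3 lists lay below the filter value on all arrays. The epiblast list, the visceral endoderm list and Rpl39l were each highest in GFP- cells at E6.5. Between stages in GFP- cells all 7 visceral endoderm markers were below 0 (median -1.87), as were all 5 epiblast markers (median -1.15), and 2 of the 4 of extraembryonic ectoderm. Of all 11706 genes tested, 5987 were below 0 there. By level, GFP- cells at E7.5 and GFP+ cells at E6.5 overlapped in the epiblast sum and not in Rpl39l. The part of these cells in the Rpl39l result was not tested, and fewer cells of a type and less RNA per cell cannot be told apart in such samples.

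Rpl39, the core gene that Rpl39l resembles, had values from 11.6 to 11.9. It read 11.88 and 11.64 in GFP- and 11.71 and 11.65 in GFP+ cells at E6.5, and 11.81 and 11.66 in GFP- and 11.89 and 11.75 in GFP+ cells at E7.5. The GFP+ cells of E6.5 lay below those of E7.5 without overlap, and every other pair of groups overlapped. Its stage difference was -0.02 in GFP- cells (SE 0.27, 95% interval -0.66 to 0.62) and 0.14 in GFP+ cells (SE 0.27). The change of Rpl39l was also tested against the core genes as a whole, by subtracting the median of the core genes from every value of an array before the fit. Relative to that median, Rpl39l was at -2.90 between stages in GFP- cells (SE 0.33, limma adjusted p = 0.0552) and fell by 1.98 over both fractions (SE 0.23, limma adjusted p = 0.0421). With the replicate number as a block both passed (limma adjusted p = 0.0295 and 0.0218), against 0.0204 to 0.0592 and 0.0164 to 0.0414 over the 6 alternatives that kept all 8 arrays. Without any 1 array neither did (limma adjusted p = 0.0914 to 0.405 and 0.0948 to 0.196). No other paralogue was called relative to the core genes, and 0.0683% of all genes were called after this subtraction in GFP- cells and 0.171% over both fractions.

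Rpl22l1, a copy of the RNA-binding large subunit gene Rpl22, was not called. It read 9.77 and 9.23 in GFP- and 9.62 and 9.08 in GFP+ cells at E6.5, and 9.91 and 9.35 in GFP- and 9.78 and 9.50 in GFP+ cells at E7.5. Replicate 1 was above replicate 2 in every group, and the groups overlapped. Its stage difference over both fractions was 0.21 (SE 0.26, 95% interval -0.40 to 0.83, 0.15 and 0.27 within the replicates), against -0.03 (SE 0.20) for Rpl22. Between fractions over both stages it was at -0.07 (SE 0.26) and Rpl22 at 0.01 (SE 0.20).

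Rpl7l1, a nucleolar relative of the large subunit gene Rpl7, read 10.38 and 9.91 in GFP- and 10.31 and 9.96 in GFP+ cells at E6.5, and 10.12 and 9.90 in GFP- and 10.27 and 9.79 in GFP+ cells at E7.5. Its groups overlapped too. Its stage difference over both fractions was -0.12 (SE 0.24, 95% interval -0.67 to 0.44), against 0.02 (SE 0.20) for Rpl7. Its 2 other probe sets had lower means (7.78 and 7.62) and stage differences of -0.39 and -0.52, which were not tested, so the value depends on the probe set.

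Rps27l, a copy of the small subunit gene Rps27 that is known as a target of p53, stayed between 10.53 and 10.83 on all 8 arrays. Its stage difference over both fractions was -0.03 (SE 0.20, 95% interval -0.49 to 0.44) and its fraction difference over both stages 0.04 (SE 0.20). Rps27 itself was not among the members. Rpl36al, an autosomal copy of the X-linked Rpl36a, stayed between 11.49 and 11.66, with -0.04 between stages (SE 0.19) against 0.05 (SE 0.19) for Rpl36a. The probe set of Rpl36al has the suffix that marks probes shared within a gene family, so its signal may include other genes.

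Rpl3l, the striated muscle copy of Rpl3, lay below the filter value on all 8 arrays and was not tested. It read 4.17 and 4.06 in GFP- and 4.15 and 4.19 in GFP+ cells at E6.5, and 3.88 and 3.86 in GFP- and 3.92 and 4.08 in GFP+ cells at E7.5. At this level the arrays give no order of groups. Rpl3, which reaches close to the site of peptide bond formation, was at 11.88 to 12.01 on all arrays, with a stage difference of -0.01 (SE 0.19). Of the 6 paralogues, 1 was thus called between stages, 4 were tested and not called in any comparison, and 1 was not measurable here.

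**Figure D2:**
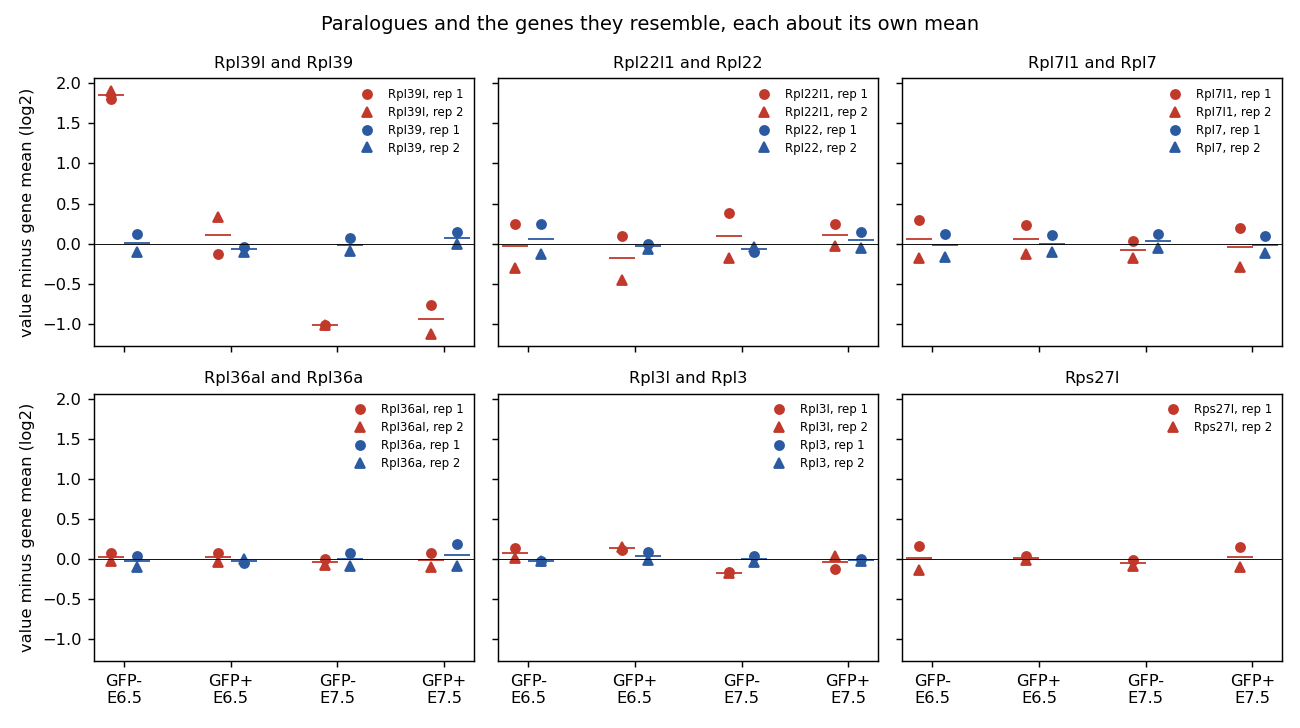
Values of each paralogue (red) and of the core gene it resembles (blue), as the difference from that gene's own mean over the 8 arrays (log2, vertical axis), by group (horizontal axis). Rps27l is shown alone, as Rps27 was not among the members. Circles are replicate 1, triangles replicate 2 and bars the mean of both. Rpl39l spans 3.03 log2 units from its lowest to its highest array and Rpl39 spans 0.25, while the other paralogues span at most 0.83.

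The core genes differed little between any groups. Their means over the arrays ran from 4.60 (Rps15a) to 12.97 (Rps2) with a median of 11.8, and 54 of the 61 lay above 11, near the top of the scale (the highest probe set of an array read 12.96 to 13.16). The median of the core genes on an array was 11.71 to 11.92 and stood at the 99.6th to 99.7th percentile of all probe sets. Over the 8 arrays a core gene ranged over a median of 0.30, against 1.22 for all genes tested, and 60 of the 61 ranged over less than that median. Their SD between replicates was a median of 0.148, against 0.431 for all genes. Whether the array compresses differences at this level was not tested.

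Between fractions, 0 of 61 core genes were called by limma at E6.5, at E7.5 or over both stages, and 0 were at an unadjusted p under 0.05, with or without the replicate number as a block. Of all genes, 0.0769% were called at E6.5, 0% at E7.5 and 0.00854% over both stages. With the block the shares were 0.256%, 0% and 0.0683%. Unadjusted p was under 0.05 by limma for 671 of 11706 genes at E6.5, 282 at E7.5 and 640 over both stages. With the block these were 1261, 755 and 1250. The median difference of the core genes, GFP+ minus GFP-, was 0.00 at E6.5 (-0.04 and 0.02 within the replicates), 0.02 at E7.5 (0.04 and 0.01) and 0.01 over both stages, against 0.01, -0.01 and 0.00 for all genes tested. At E6.5, 32 core genes were above and 29 below 0, and at E7.5 38 and 23. The small subunit genes had medians of 0.01 and 0.02 and the large subunit genes of 0.00 and 0.03 at the 2 stages. None of the 61 differed by more than 0.5 in any comparison, while 23.3% of all genes tested did at E6.5.

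Between stages, 0 of 61 core genes were called by limma in GFP+ cells, in GFP- cells or over both fractions, and 0 were at an unadjusted p under 0.05, again with or without the block. In GFP+ cells 0.0256% of all genes were called with or without the block. Without the block, 0.094% were called in GFP- cells and 0.256% over both fractions. With the block, 0.333% were called in GFP- cells (0.0854% lower) and 0.803% over both fractions (0.196% lower). Unadjusted p was under 0.05 by limma for 451 of 11706 genes in GFP+ cells, 759 in GFP- cells and 843 over both fractions. With the block these were 1017, 1430 and 1590. The median change from E6.5 to E7.5 was 0.03 in GFP+ cells (0.00 and 0.04 within the replicates), -0.01 in GFP- cells (-0.06 and 0.04) and 0.01 over both fractions, against -0.03, -0.01 and -0.02 for all genes tested. Over both fractions 31 core genes were above and 30 below 0, and only 17 had the same sign in both replicates. The range of changes over both fractions was -0.06 to 0.10, and no core gene changed by more than 1.07-fold there. For the fraction by stage interaction the core median was 0.03, the largest size 0.32, and 0 core genes and 0% of all genes were called.

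What the arrays could show for the core genes is set by the fit, here the one without the replicate block. The 95% interval of a core gene's difference had a median half-width of 0.66 between 2 groups and of 0.47 over both stages or fractions. For the stage difference over both fractions, the lowest bound of any core gene was -0.98 (Rpl41) and the highest 0.91 (Rpl14). Without the block, differences between the replicate numbers count as spread, so these 2 bounds are wide for genes that differ between the numbers. limma moves each gene's spread towards a value shared by all genes. With that value allowed to depend on the level of the gene, the median SE of a core gene between 2 groups went from 0.283 to 0.139. Then 0 core genes were called in the 7 comparisons, with 0 at an unadjusted p under 0.05. Of all 11706 genes, 0 were called between fractions at E7.5 and 74 between stages over both fractions in that fit. These values do not show that the groups are alike below those sizes.

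**Figure D3:**
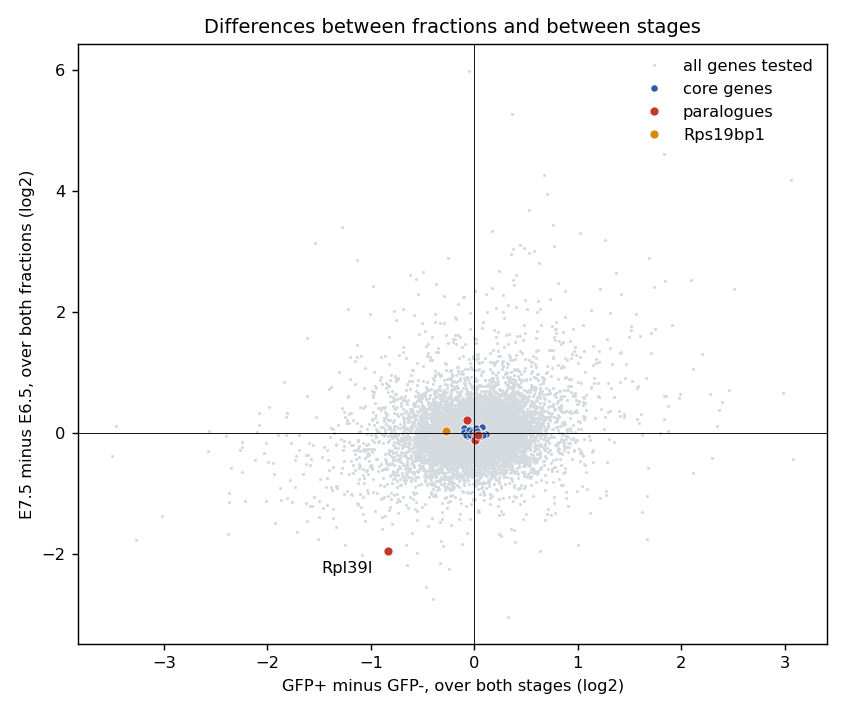
Difference between fractions (GFP+ minus GFP-, over both stages, log2, horizontal axis) and between stages (E7.5 minus E6.5, over both fractions, log2, vertical axis) for all 11706 genes tested (grey), the core genes (blue), the paralogues (red) and Rps19bp1 (orange). The core genes lie within -0.28 to 0.12 on one axis and -0.06 to 0.10 on the other, and Rpl39l lies at -0.84 and -1.96; the point of Rps15a is covered by that of Rps19bp1.

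Among single core genes the largest differences were small. Rps15a, a small subunit gene, was lowest in GFP+ relative to GFP- cells over both stages, at -0.28 (SE 0.24, -0.49 and -0.08 within the replicates). Its only probe set read 4.30 to 5.08, near the filter value, so the size of this difference is uncertain. Probe sets of other core genes often stood at very different levels, and whether this one gives the level of the gene was not tested. Rpl13 (-0.10), Rps13 (-0.10) and Rps19 (-0.09) followed. Rps19, whose loss causes a failure of red cell production in people with Diamond-Blackfan anaemia, read 11.08 and 10.89 in GFP- and 10.56 and 10.91 in GFP+ cells at E6.5, so its difference rested on replicate 1 (-0.52, against 0.02 in replicate 2). At E7.5 it read 10.49 and 11.08 in GFP- and 10.70 and 11.03 in GFP+ cells. At the other end stood Rpl36 (0.12), Rps4x (0.09), Rps21 (0.07) and Rpl9 (0.07), each with an SE of 0.19 to 0.22.

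Between stages over both fractions, Rps12 (-0.06), Rpl37a (-0.06), Rpl23 (-0.06) and Rpl13a (-0.06) had the lowest core differences, and Rpl9 (0.10), Rps3a1 (0.08), Rpl13 (0.07) and Rpl24 (0.07) the highest. Each of these 8 had an SE of 0.19 to 0.21, so none stood apart from 0. Rpl24 is a large subunit gene whose partial loss gives mice a belly spot and a kinked tail. Rpl13a is a large subunit gene whose protein can leave the ribosome to silence inflammatory messages. Rpl9 had the highest stage difference of the core genes, with 0.11 and 0.09 within the replicates.

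The most even core genes were Rpl27, Rpl4 and Rps23. Rpl27 read between 11.53 and 11.61 on all 8 arrays, a range of 0.08, and Rpl4, whose protein forms part of the exit tunnel wall, between 12.11 and 12.20. Rps23, which lies at the decoding centre of the small subunit, read between 11.83 and 11.95. The widest were Rpl14, Rpl41 and Rps15a. Rpl14 read 8.43 and 8.28 in GFP- and 8.58 and 8.21 in GFP+ cells at E6.5, and 9.14 and 7.78 in GFP- and 8.85 and 7.86 in GFP+ cells at E7.5, with replicate 1 higher in all 4 groups. Rpl41, the smallest protein of the ribosome, ran the other way, at 11.13 to 11.28 in replicate 1 and 12.04 to 12.22 in replicate 2. In Rpl14 and Rpl41 the wide range thus lay between the replicate numbers, and the groups overlapped.

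Many core genes differed between the replicate numbers in the same direction. In all 4 groups, 33 of the 61 core genes were higher in replicate 1 and 3 (Rpl19, Rpl34 and Rpl41) were higher in replicate 2, with 25 mixed. The median over core genes of replicate 1 minus replicate 2 was 0.12. The largest such differences were in Rpl14 (0.72), Rpl12 (0.52) and Rps14 (0.48) on one side and Rpl41 (-0.93) on the other. By comparison, the largest size of any core gene's stage difference over both fractions was 0.10. The labels call the numbers biological replicates and do not say what else the arrays of a number shared.

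The probe sets of a gene often stood at very different levels. The 68 members had 130 probe sets, 35 members had 1 and 33 had more, up to 5. Among these 33 the gap between the highest and the lowest mean was a median of 3.59, and it exceeded 1 in 22. The widest was that of Rps6, the target of the S6 kinases, at 9.23. Of the probe sets used, 15 carry the suffix for probes that can match unrelated transcripts and 6 that for probes shared by several transcripts, a known difficulty for ribosomal protein genes, which have many processed pseudogenes. Rpl39l had 1 probe set, with neither suffix. Among the 62 probe sets not used, the stage difference was at most 0.66 in size, and that was the second probe set of Rpl13, so no unused probe set came near the change of Rpl39l.

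The X chromosome carried 4 of the members, Rpl10, Rpl36a, Rpl39 and Rps4x, and the other 64 lay elsewhere. Rpl39l itself lies on chromosome 16. Over both fractions the X-linked genes had stage differences of -0.05 (Rpl10), 0.05 (Rpl36a), 0.06 (Rpl39) and -0.03 (Rps4x), and over both stages fraction differences of 0.01, 0.03, 0.00 and 0.09. None was called. These values lay within the range of the core genes on other chromosomes.

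Rps19bp1, the gene outside the ribosome, read 8.07 and 7.56 in GFP- and 7.53 and 7.66 in GFP+ cells at E6.5, and 8.11 and 7.70 in GFP- and 7.95 and 7.20 in GFP+ cells at E7.5. Its groups overlapped. The fraction difference over both stages was -0.27 (SE 0.26, -0.35 and -0.20 within the replicates) and the stage difference 0.03 (SE 0.26), and it was not called in any comparison.

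Other genes of ribosome production and translation gave 0 calls by limma in all 7 comparisons, with or without the replicate block, but the lists differed in where their changes lay. Of the ribosomal protein genes with other symbols, 5 were measured, among them the stalk genes Rplp1 and Rplp2 and the small subunit gene Rpsa, and their stage differences over both fractions ran from -0.07 to 0.01. The list for synthesis and processing of ribosomal RNA had 39 tested genes with a median of -0.27 between stages, of which 34 were below and 5 above 0. Its lowest were Rrn3 (-0.94, SE 0.50; -0.49 without replicate 1 of GFP- E6.5 and -0.55 without replicate 2 of GFP+ E7.5), which brings RNA polymerase I to its promoter, and Polr1b (-0.64, SE 0.24), the second largest subunit of that polymerase, and its highest Ncl (0.27, SE 0.34) and Npm1 (0.10, SE 0.25), abundant nucleolar proteins. The list for assembly and export of subunits had 30 tested genes with a median of -0.23, of which 28 were below and 2 above 0. Its lowest were Gnl3l (-0.89, SE 0.38; -0.50 without replicate 1 of GFP- E6.5) and Gnl2 (-0.71, SE 0.28), both nucleolar GTPases. For Gnl3l the GFP- fraction gave -1.80 and the GFP+ fraction 0.02. The highest of the list were Pno1 (0.02, SE 0.42) and Riok1 (0.21, SE 0.24), of which Riok1 had a stage difference of 0.73 for the GFP- and of -0.31 for the GFP+ fraction (SE 0.34 each). The median over all genes tested was -0.02. Of all 11706 genes tested, 6284 were below 0 in this comparison. The lists were drawn up by function but with earlier results of these data known. With no test of a list, the leaning to lower values is a description.

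Translation factors, 28 of which were tested, had a stage median of -0.05, with Eif3d (-0.27, SE 0.20) and Eif3l (-0.13, SE 0.20) lowest and Eif4e (0.14, SE 0.39) and Btf3 (0.11, SE 0.20) highest. Eif4e lay under the filter value on all replicate 1 arrays and read 4.87 to 5.57 on those of replicate 2, so the size of its difference is uncertain. Among 11 regulators linked to ribosomal protein genes or to the nucleolar stress response, the stage median was -0.13. Mycl, of the Myc family, had a difference of -1.34 (SE 0.29, adjusted p = 0.18 by limma; -1.05 and -1.64 by replicate) and Myc at -0.49 (SE 0.25). Cdkn1a, a p53 target that halts the cell cycle, had 0.63 (SE 0.23; 0.82 and 0.44 by replicate) and Rptor at 0.17 (SE 0.33). Of the genes named as highest, Ncl, Npm1, Pno1, Eif4e and Rptor were below 0 in at least 1 of the 8 fits that left out an array. Between fractions over both stages the medians of these 5 lists lay between -0.04 and 0.04. The farthest genes were Riok1 (0.79, SE 0.24), Mycl (0.70, SE 0.29; 0.40 without replicate 2 of GFP- E7.5), Ncl (0.57, SE 0.34; 0.29 without replicate 1 of GFP+ E6.5 and 0.33 without replicate 2 of GFP- E6.5) and Cdkn1a (-0.53, SE 0.23), of which none was called.

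**Figure D4:**
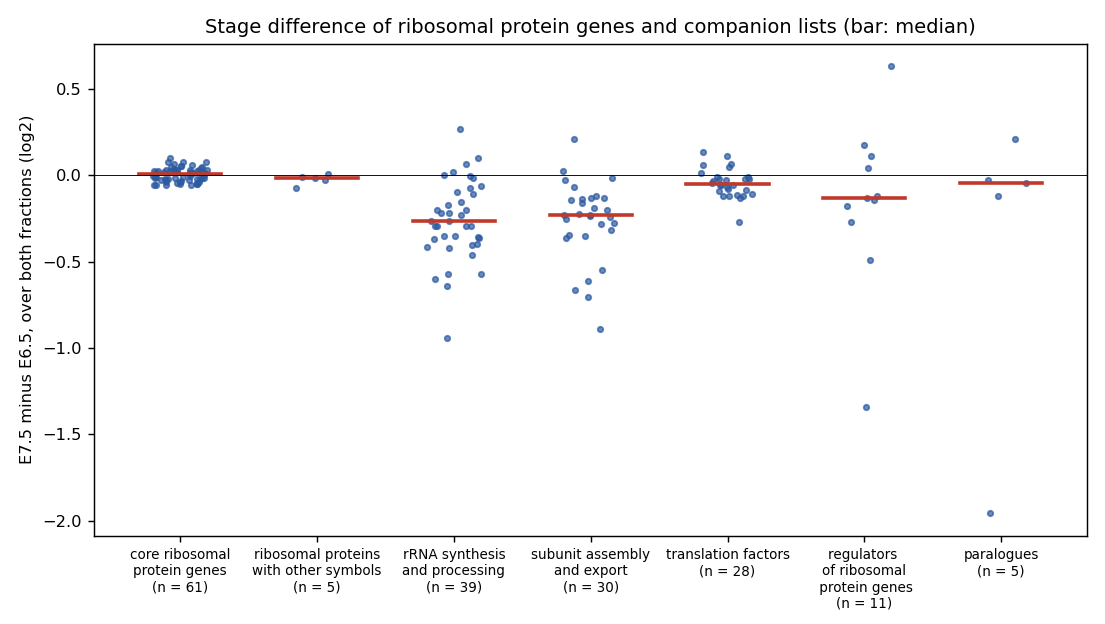
Difference between stages (E7.5 minus E6.5, over both fractions, log2, vertical axis) of each tested gene (points) of the core ribosomal protein genes, 5 companion lists and the paralogues (horizontal axis), with the median as a bar. The core genes lie between -0.06 and 0.10, the genes for ribosomal RNA production have a median of -0.27, and the lowest paralogue is Rpl39l at -1.96.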

How the data were processed

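The files held the authors' deposited log2 expression values for 45141 probe sets on 8 arrays, made with RMA per the submitters' processing notes, which give no version; RNA from 50 cells was amplified (25 PCR cycles) per the labels' protocols. The deposited values had like distributions within a replicate number but not between the numbers. A change in total RNA per cell between groups is therefore not visible, and the number of arrays limits the precision. Probe sets with 1 symbol (28898) were kept when at least 2 of 8 arrays lay above 4.38, the median of all values, and the brightest probe set by mean stood for its gene, which left 11706 genes. All 68 members matched RefSeq by Entrez identifier.

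limma 3.58.1 in R 4.3.3 was fitted with a mean per group (4 residual degrees of freedom, prior 3.21) and 7 contrasts, and was tested on simulated data. Same-numbered arrays deviated from their group means together (r from 0.401 to 0.532 over genes, 6 pairs of groups), so the numbers were taken to pair the arrays, and a fit with that block was an alternative. Others were no filter, the mean of all probe sets, no probe sets marked as shared, joint quantile normalization, only the arrays compared, an intensity trend and leaving out each array. Named were paralogues, the genes they resemble, called members, the 4 highest and lowest core differences over both stages and over both fractions, the 3 widest and 3 narrowest core ranges and the ends of each companion list; Rpl10, Rpl12, Rpl19, Rpl34, Rps2, Rps6 and Rps14 were added after their values were seen. Members and lists were chosen with earlier results of these data known.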

Additional observations from a re-analysis of the deposited data

How the results depend on the processing

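The count of members called, 1 in each of the 2 stage comparisons that called Rpl39l, was 0 without any 1 array (lowest and highest 0), a design with fewer arrays to estimate the spread, and 0 between stages in GFP- cells with only the arrays of the comparison. It was 1 under the other 6 alternatives, and the other 5 comparisons had 0 throughout. Of all genes, 11 were called in GFP- cells and 30 over both fractions as fitted. Over those 6 alternatives these were 11 to 39 and 29 to 94. With only the arrays of the comparison, 4 were called in GFP- cells. Without any 1 array, fewer of all genes were called than as fitted too. The number of paralogue calls relative to the core genes, 1 as fitted, was 2 with the replicate block, with joint quantile normalization and with no subtraction, and 0 with only the arrays of the comparison or without any 1 array. The replicate block changed no other call. The core median between fractions at E6.5 was -0.0985 to 0.0788 when an array was left out (0.00 as fitted). In the same fits the median of all genes tested was -0.102 to 0.131 (0.01 as fitted). For a single member, the replicate block, no filter, only the arrays of the comparison and the intensity trend leave the size of a change as fitted. Leaving out an array of a group outside the comparison does so too. Many of the values counted next could therefore not move in size. Of 3046 values of single named members under an alternative, 2888 stayed within the spread between replicates or kept their call, 141 moved by more, 17 (all Rpl39l) lost a call and 0 reversed a call.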
